A study of Rattus norvegicus with 9 samples.

Results

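Axotomy of a peripheral nerve starts a program of gene expression in the cell bodies of the cut axons. Transcription factors such as Atf3, Jun and Sox11 are induced, and genes for growth cone proteins, tubulin regulators, adhesion molecules and secreted signals follow. The program is best known from sensory neurons of the dorsal root ganglia and from motor neurons. The ganglia lie outside the spinal cord, while the motor neurons, the incoming sensory terminals and the glia around them lie within it. The 10 genes described here (Atf3, Sprr1a, Csf1, Gadd45a, Gap43, Sox11, Flrt3, Stmn4, Ecel1 and Cckbr) were taken by name as markers of this program, and the question was whether they carried a signal of injury in the cord after 21 days. Each name matched exactly 1 of the 34890 loci in the table.

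The RNA came from the ipsilateral side of the L3-L6 cord of male Sprague Dawley rats, labelled WT, in 3 groups of 3 samples. The JA rats had sham surgery and received saline. In the SNI rats (spared nerve injury) the common peroneal and tibial nerves were tied and cut, the sural nerve was left whole, and saline was given. The PLM rats had the same injury and received paeoniflorin at 20.65 mg/ml with liquiritin, glycosides of peony and licorice roots, for which the labels of replicates 1, 2 and 3 give 3.98, 3.99 and 3.100 mg/ml. The study's methods state a single liquiritin concentration for the whole group, that of replicate 1, so different doses within the group are not established. Saline or drugs were given by gastric infusion for 21 days, and no group of uninjured rats received the drugs. Values are TPM, transcript abundances scaled for length and to the same total in each sample, which keep no read depth, so counting error is unknown. In bulk tissue, fewer cells of a type and less RNA per cell cannot be told apart.

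The 10 genes covered a wide range of levels, and TPM can be compared between genes. Stmn4, a stathmin family protein that binds tubulin and regulates microtubules, was the most abundant, at 488 to 542 TPM over the 9 samples. Gap43, the growth cone protein long used to mark growing axons, lay between 95.9 and 119 TPM. Gadd45a, a stress sensor of growth arrest and DNA repair, lay between 22.3 and 31.9 TPM, just above Csf1 at 12.7 to 21.25 TPM. These 4 ranges did not overlap, so the order Stmn4, Gap43, Gadd45a, Csf1 held between any samples. Ecel1, Atf3, Cckbr and Flrt3 followed with means over all samples of 4.39, 4.09, 3.65 and 3.00 TPM, and their ranges overlapped. Sox11, at 0.32 to 0.71 TPM, was below these in every sample, and Sprr1a, at 0 to 0.38 TPM, was lower still in each sample. The last pair were under the filter of a mean of 1 TPM, so 8 of the 10 genes were tested.

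**Figure D1:**
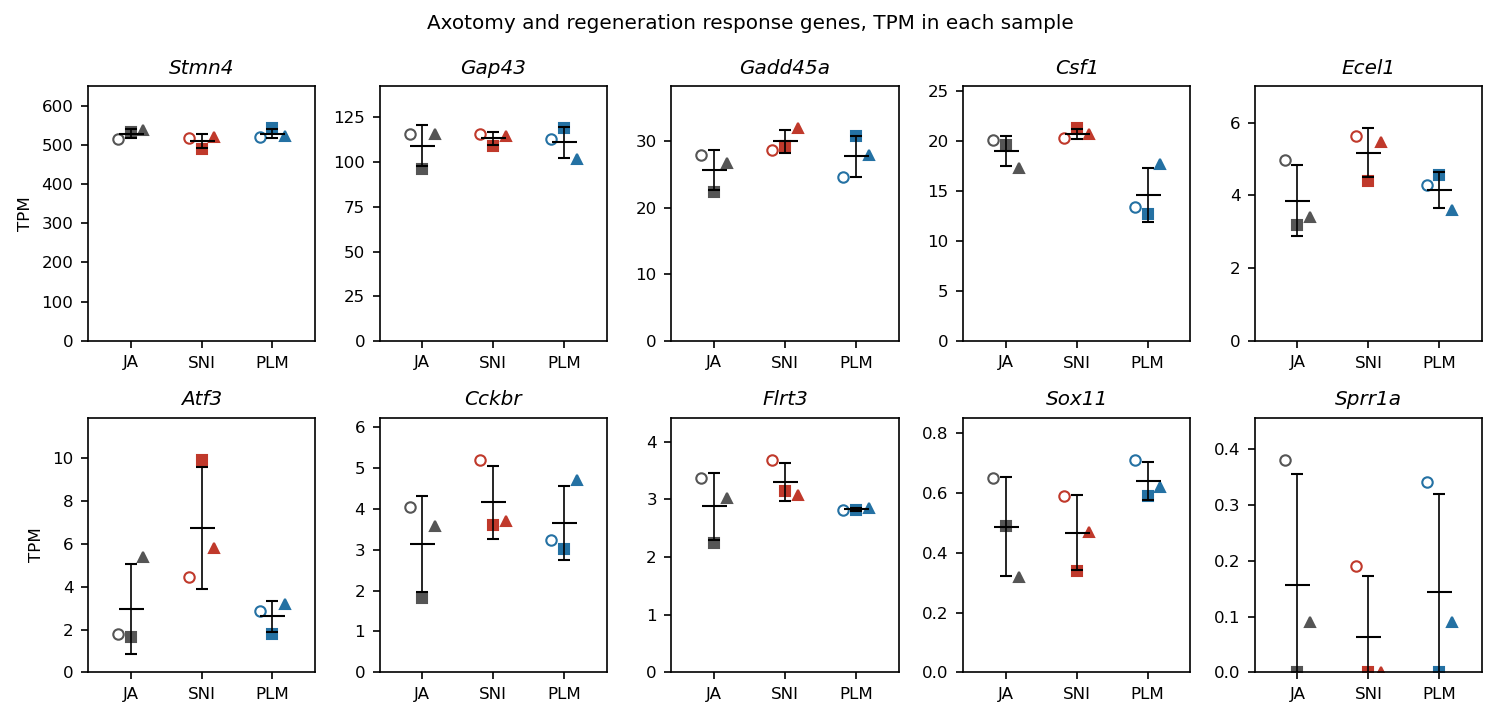
TPM (vertical axis from 0, its own scale in each panel) of the 10 genes in the JA, SNI and PLM samples; open circles, squares and triangles are replicates 1, 2 and 3, and black bars are the mean and SD of 3 samples. Relative to its mean, Atf3 has the widest spread of the tested genes (CV of 71.5% in JA and 42.3% in SNI), with SNI replicate 2 at 9.90 TPM, whereas Stmn4 stays between 488 and 542 TPM in all samples.

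The effect of injury was addressed by SNI against JA. No gene of the 10 passed an adjusted p-value under 0.05 (limma on log2(TPM + 1), Benjamini-Hochberg over 15557 loci), and 0 loci in the whole table did, a background of 0%. At an unadjusted p-value under 0.05, 1 of the 8 tested genes was past the threshold, Atf3, against 7.1% of all loci. Atf3 was also the 1 gene that met both thresholds of the study's methods, an unadjusted p-value under 0.05 with an absolute log2 fold change above 1, which 0.688% of all loci met. Over the 8 genes the log2 fold change had a median of 0.19, against 0.12 for all loci tested, and 1 of the 8 was below 0, against 23.6% of all loci. After median-centring, in which each sample is centred on its median over all loci, 0 of the 8 passed an unadjusted p-value of 0.05, against 4.83% of all loci.

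Atf3, a stress-induced transcription factor that is low in intact neurons, is the most widely used marker of axotomised cells. In the JA samples it was 1.81, 1.66 and 5.39 TPM. In the SNI samples it was 4.44, 9.90 and 5.80 TPM. All but 1 of the JA samples were below every SNI sample, but JA replicate 3 exceeded SNI replicate 1, so the groups overlapped. The means were 2.95 ± 2.11 TPM in JA and 6.71 ± 2.84 TPM in SNI (SD, n = 3 each), a ratio of 2.27. On the log2(TPM + 1) scale, which understates changes of low genes, the difference was 1.03 with an SE of 0.40 and a 95% interval of 0.07 to 1.98. By limma its unadjusted p was 0.0392 and its adjusted p 0.614. After centring, the difference was 0.90, the interval ran from -0.15 to 1.96 and the adjusted p was 0.889. With single samples left out, the difference ranged from 0.75 (without SNI replicate 2) to 1.43 (without JA replicate 3), and both thresholds were still met in 2 of 6 cases, without SNI replicate 1 and without JA replicate 3.

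Schwann cell RNA differed widely between the samples. The summed level of 7 genes of myelinating Schwann cells, the glia of the nerve roots, was 60.8, 20.97 and 648 TPM in the JA samples. It was 63.4, 334 and 132 TPM in SNI. It was 32.8, 89.8 and 249.1 TPM in PLM. All 7 genes were detected, and Pmp2, a fatty acid-binding protein of peripheral myelin, ranged from 4.84 to 327 TPM in JA and from 31.4 to 135 TPM in SNI. Within JA and within SNI the samples took the same order by Atf3 as by this sum, with JA replicate 3 and SNI replicate 2 the highest. In PLM replicate 3 was highest for both, but replicates 1 and 2 changed places. An alternative chosen after the data had been seen left out the sample highest in this sum in each group. The difference in Atf3 between SNI and JA was then 1.15 and its limma adjusted p 0.593. In SNI against JA, 7 of the 7 Schwann cell genes were above 0, where 23.6% of all loci were below 0. Their median was 0.44, against 0.12 for all loci, and 0.31 after centring. At an unadjusted p-value under 0.05 there were 0, against 7.1% of all loci.

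Immediate early genes, which neurons and other cells switch on within minutes of stimulation or of tissue handling, also varied. The sum of 11 such genes was 101 to 241 TPM in JA, 178 to 327 TPM in SNI and 143 to 332 TPM in PLM, and all 11 were detected. Egr2 stands in this list and in that of the Schwann cells. SNI replicate 2 and JA replicate 3 were again the highest of their groups. PLM replicate 1, the highest sample of all by this sum, had Atf3 at 2.87 TPM. Fos, the most used of these genes, was 11.2, 9.77 and 22.9 TPM in JA and 12.2, 19.2 and 10.8 TPM in SNI, with a log2 fold change of 0.00. Dusp1, a phosphatase that switches off MAP kinases, had the smallest p of the list, with 39.7, 19.7 and 55.8 TPM in JA and 55.0, 104.6 and 79.2 TPM in SNI (log2 fold change 1.10, limma adjusted p = 0.614), and its groups overlapped. Of the 10 early genes tested in SNI against JA, 0 passed the adjusted threshold and 1, Dusp1, met both thresholds, against 0.688% of all loci. The median of the list was 0.35, against 0.12 for all loci, and 1 of the 10 was below 0, against 23.6% of all loci. After centring the median was 0.23, and Dusp1 no longer met both thresholds. Genes of meninges and fibroblasts varied with the same samples. The sum of the 9 of 10 such genes that matched was 104.6, 98.2 and 349 TPM in JA, 80.7, 223 and 123 TPM in SNI and 55.5, 82.3 and 126.6 TPM in PLM. Within JA and within SNI this was again the order of the samples by Atf3. The part of Schwann cell, meningeal or early gene RNA in the Atf3 values was not tested.

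**Figure D2:**
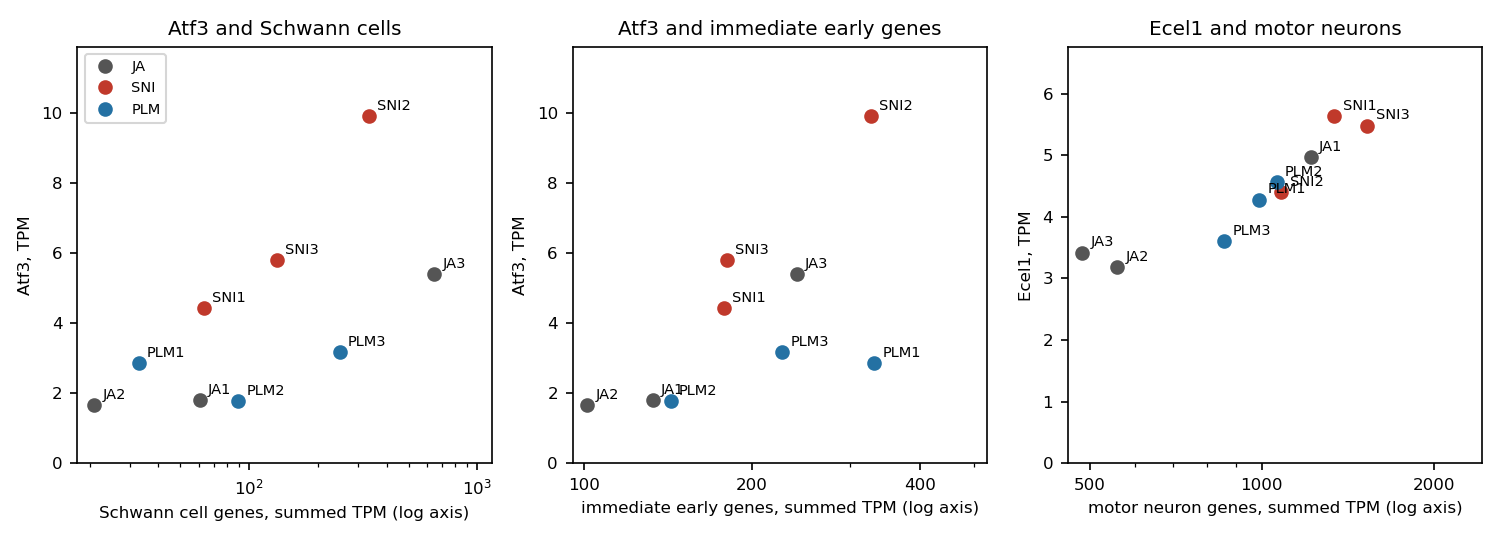
TPM of Atf3 or Ecel1 (vertical axes from 0) against the summed TPM of marker genes (horizontal log axes) in the 9 samples, coloured by group and labelled by replicate. JA replicate 3 and SNI replicate 2 are high in Schwann cell genes and in Atf3; Ecel1 is lowest in JA replicates 2 and 3, which have the lowest sums of motor neuron genes.

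Jun and Sox11 belong to the same first wave of transcription factors. Jun, the AP-1 subunit that partners Atf3 and is needed for efficient axon regrowth, was 34.7, 28.5 and 34.9 TPM in JA and 43.4, 52.8 and 35.7 TPM in SNI. Every SNI sample was above every JA sample, as for 12.1% of all loci in that direction. The margin between SNI replicate 3 and JA replicate 3 was small. The log2 fold change was 0.41 (SE 0.16, unadjusted p = 0.0395, limma adjusted p = 0.614). After centring it was 0.28, and the groups overlapped. In PLM, Jun was 55.1, 34.0 and 40.4 TPM, which overlapped SNI. Sox11, a factor of developing and regrowing neurons, was 0.65, 0.49 and 0.32 TPM in JA, 0.59, 0.34 and 0.47 TPM in SNI, and 0.71, 0.59 and 0.62 TPM in PLM. Fitted without the filter, its difference in SNI against JA was -0.02 on the log2 scale (95% interval -0.29 to 0.26), and in PLM against SNI it was 0.16 (adjusted p = 0.274).

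Sprr1a, a small proline-rich protein that is nearly absent from intact neurons and among the most strongly induced genes of axotomised ganglia, was listed at 0.38, 0 and 0.09 TPM in JA. It was listed at 0.19, 0 and 0 TPM in SNI and at 0.34, 0 and 0.09 TPM in PLM. Replicate 1 of each group held the highest value, and the groups overlapped completely. Such values cannot carry a fold change without the depth. Of the 10 genes, 6 have an entry in a RefSeq table of rat promoters (GRCr8), which covers 250 bases before to 50 bases after the start site. The AP-1 motif, TGAGTCA or TGACTCA on either strand, occurred in 1 of these 6, Sprr1a, and in 4.63% of 33469 promoters. The stretch with its 2 matches is shown because no other of the 6 windows held this motif of the Jun family, with the motif in capitals, from chr2:180752716-180752792 (GRCr8, minus strand, 167 to 91 bases before the start):
Sprr1a: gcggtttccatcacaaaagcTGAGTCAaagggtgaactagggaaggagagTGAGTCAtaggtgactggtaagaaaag
The CRE motif TGACGTCA, to which Atf3 and its relatives can bind, occurred in 0 of the 6 and in 1.83% of all promoters. A match is only a description of the letters in the window.

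Csf1, macrophage colony-stimulating factor, is the signal by which injured sensory and motor neurons can stimulate microglia, which carry its receptor Csf1r. Csf1 was 20.1, 19.6 and 17.3 TPM in JA and 20.3, 21.25 and 20.7 TPM in SNI. The SNI samples were all above the JA samples, although SNI replicate 1 exceeded JA replicate 1 by only a small margin. Gadd45a was 27.9, 22.3 and 26.7 TPM in JA and 28.6, 29.3 and 31.9 TPM in SNI, again without overlap. Groups that did not overlap were thus seen for 2 of the 8 tested genes, both higher in SNI, against 12.1% of all loci in that direction. The log2 fold changes were small, 0.12 for Csf1 (SE 0.09, adjusted p = 0.648) and 0.22 for Gadd45a (SE 0.11, adjusted p = 0.614, limma). After median-centring they were 0.00 and 0.10, and 0 of the 8 genes were free of overlap, against 10.9% of all loci.

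The receptor side of the Csf1 signal was also measured. Csf1r was 42.1 to 56.2 TPM in JA and 42.8 to 50.1 TPM in SNI, with a log2 fold change of -0.05. Aif1, which encodes the microglial marker IBA-1, was 60.5, 90.2 and 86.4 TPM in JA and 63.7, 61.5 and 60.2 TPM in SNI (log2 fold change -0.33, limma adjusted p = 0.614). Of the 10 genes of the microglial list, 0 passed the adjusted threshold in SNI against JA and 1, Cd68, passed an unadjusted p-value of 0.05, against 7.1% of all loci, with a log2 fold change of -0.51. The median of the list was -0.07, against 0.12 for all loci. After centring, 3 of the 10 passed an unadjusted p-value of 0.05, all lower, against 4.83% of all loci, 0 passed the adjusted threshold and the median was -0.20, with Aif1 at -0.45 (unadjusted p = 0.0495, limma adjusted p = 0.889).

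The growth and cytoskeletal genes were close to level between SNI and JA. Gap43 was 116, 95.9 and 116 TPM in JA and 116, 109 and 115 TPM in SNI. Its log2 fold change was 0.06, with a 95% interval of -0.18 to 0.29, and -0.06 after centring. Stmn4 was 516, 532 and 538 TPM in JA and 519, 488 and 519 TPM in SNI. Its log2 fold change was -0.06 (95% interval -0.22 to 0.11), and -0.18 after centring. For these 2 abundant genes the upper ends of the 95% intervals were thus 0.29 and 0.11 as deposited.

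Flrt3, a leucine-rich transmembrane protein of cell adhesion, Ecel1, a membrane endopeptidase also known as damage-induced neuronal endopeptidase, and Cckbr, the cholecystokinin B receptor, were low. Ecel1 was 4.97, 3.19 and 3.42 TPM in JA and 5.63, 4.40 and 5.48 TPM in SNI (log2 fold change 0.36, SE 0.17, limma adjusted p = 0.614). Cckbr was 4.04, 1.81 and 3.58 TPM in JA and 5.19, 3.59 and 3.70 TPM in SNI (0.35, SE 0.25, adjusted p = 0.639). Flrt3 was 3.37, 2.24 and 3.02 TPM in JA and 3.68, 3.14 and 3.07 TPM in SNI (0.16, SE 0.16, adjusted p = 0.704). After centring these values were 0.23 for Ecel1, 0.23 for Cckbr and 0.04 for Flrt3. All 3 genes overlapped between the groups, and in each of them JA replicate 1 was above at least 1 SNI sample. JA replicate 2 was the lowest of all 9 samples for Atf3, Gadd45a, Gap43, Flrt3, Ecel1 and Cckbr. In this sample the mitochondrial protein genes also took the largest part of the total, which was 25.3%, 32.8% and 29.3% in the JA samples and 23.7%, 26.1% and 24.1% in SNI. With TPM rescaled without those genes, the log2 fold change in SNI against JA was 1.02 for Atf3, 0.30 for Ecel1, 0.30 for Cckbr, 0.135 for Gadd45a, 0.10 for Flrt3 and -0.03 for Gap43.

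**Figure D3:**
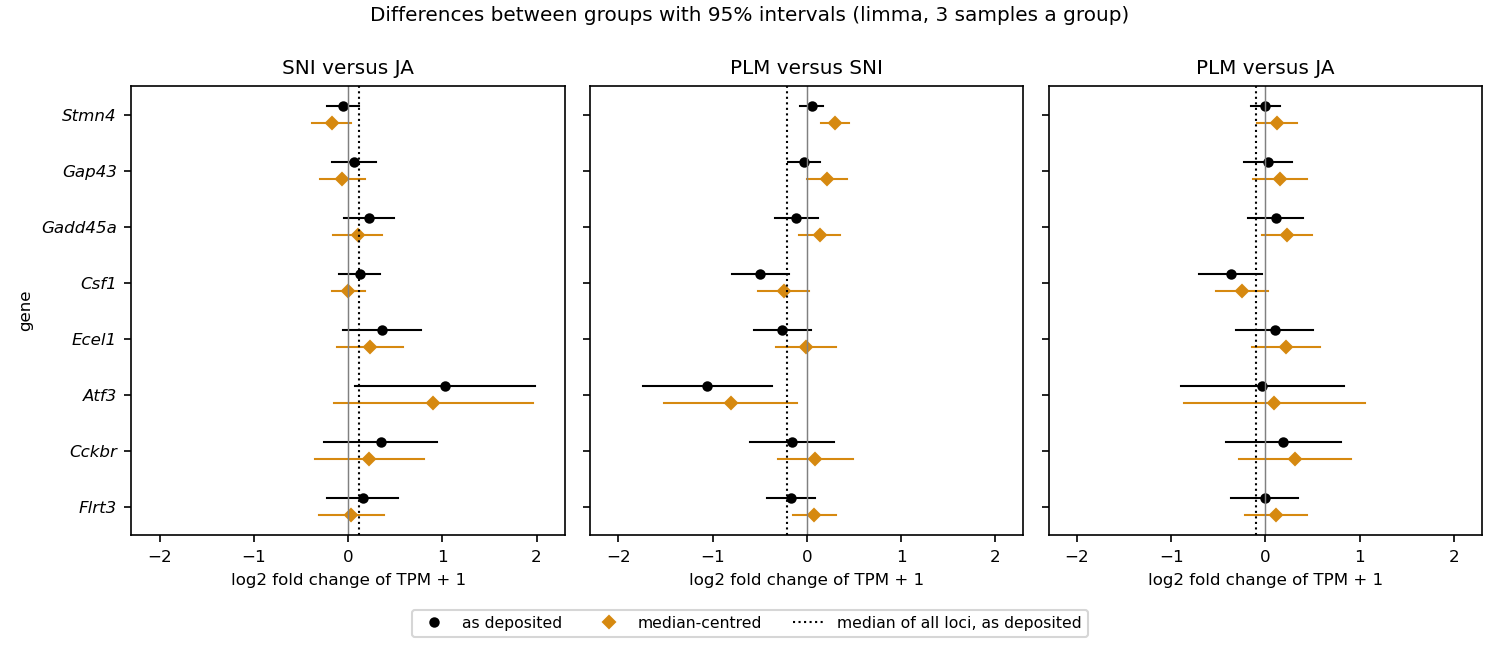
Log2 fold change of TPM + 1 (horizontal axis) of the 8 tested genes in the 3 comparisons; points are limma estimates from 3 samples a group, lines are 95% intervals, and dotted lines are the median of all loci as deposited. Atf3 stands at 1.03 in SNI against JA and at -1.06 in PLM against SNI, and its interval is the widest in both. In PLM against SNI the centred intervals of Stmn4 and Gap43 lie above 0, and that of Atf3 lies below 0.

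Motor neurons are the cut cells whose bodies lie in the cord, and their markers differed between samples. Chat, the enzyme of acetylcholine synthesis, was 5.36, 2.63 and 1.25 TPM in JA, 8.01, 3.93 and 7.53 TPM in SNI and 3.76, 4.94 and 3.82 TPM in PLM. The summed level of 10 motor neuron genes, all detected, was 484 to 1219 TPM in JA, 1083 to 1530 TPM in SNI and 858 to 1061 TPM in PLM. JA replicates 2 and 3 had the lowest sums, and they had the lowest Ecel1 values too. Of the 8 motor neuron genes tested in SNI against JA, 0 passed the adjusted threshold, 4 passed an unadjusted p-value of 0.05 and 3 met both thresholds, all higher, against 7.1% and 0.688% of all loci in either direction, and the median of the list was 1.01. Slc5a7, the choline transporter, had the smallest p of the list, with 6.96, 2.63 and 1.79 TPM in JA and 9.46, 8.69 and 10.4 TPM in SNI (log2 fold change 1.28, limma adjusted p = 0.614). After centring, 4 of the 8 motor neuron genes still passed an unadjusted p-value of 0.05, all higher, against 4.83% of all loci. The centred median of the list was 0.89, against -0.01 for all loci, and 0 passed the adjusted threshold. The part of the motor neuron content of the dissected tissue in the values of Ecel1 and the other genes was not tested. Ganglion neurons were hardly represented, with Mrgprd at 0 in every sample, Scn10a at 0.07 TPM or less, and a sum of 8.64 to 11.7 TPM over 10 of their markers.

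A wider list of 30 regeneration genes, of which 29 matched and 27 were tested, gave 0 genes at the adjusted threshold in SNI against JA. At an unadjusted p-value under 0.05 there were 3, all higher, against 7.1% of all loci in either direction, and 2 of the 27 were below 0, against 23.6% of all loci, with a median of 0.21. Itga7, the laminin-binding integrin of regrowing axons, had the smallest p, at 9.18, 8.32 and 7.88 TPM in JA and 10.15, 11.4 and 10.4 TPM in SNI (log2 fold change 0.30, limma adjusted p = 0.614). Tubb3, the neuronal beta-tubulin, was 600, 280 and 314 TPM in JA and 609, 507 and 698 TPM in SNI (0.68, adjusted p = 0.614). The neuropeptides of injured sensory neurons gave log2 fold changes of 0.21 for Gal and -0.12 for Npy. Klf6, a factor of axon growth, gave 0.22, with 9.66 to 18.8 TPM in SNI. Each of these genes overlapped between the groups. Which cells of the cord held their RNA was not tested. After centring, 0 genes of the list passed an unadjusted p-value of 0.05 and the median was 0.08. The summed level of 10 general neuron genes was 2146, 1404 and 1780 TPM in JA and 2410, 2011 and 2365 TPM in SNI, and JA replicates 2 and 3 were the lowest of these 6 samples here and for Tubb3. In SNI against JA, 0 of these 10 passed the adjusted threshold, 1 passed an unadjusted p-value of 0.05 and 0 were below 0, and the median was 0.28, or 0.16 after centring. Of 10 astrocyte genes, 0 passed an unadjusted p-value of 0.05 and 0 were below 0, and the median was 0.40, or 0.28 after centring. Stmn2 stands in the regeneration list, in that of the general neuron genes and among the relatives described below. The part of neuron or astrocyte RNA in the regeneration list was not tested.

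Injured rats with and without the drugs were compared as PLM against SNI. As deposited, 85.05% of all 15474 loci had a log2 fold change below 0 and the median was -0.21, and the mitochondrial protein genes took 31.3% to 32.8% of the TPM in PLM against 23.7% to 26.1% in SNI. Of the 8 genes, 1 passed an adjusted p-value under 0.05, Csf1, which fell, as did 13.6% of all loci, and 2 passed an unadjusted p-value of 0.05, against 37.1% of all loci. Atf3 alone met both thresholds of the study's methods, in the lower direction, against 1.42% of all loci. The median of the 8 genes was -0.16. After median-centring, 0 of the 8 passed the adjusted threshold, against 0.814% of all loci, 3 passed an unadjusted p-value of 0.05 (Atf3 lower, Stmn4 and Gap43 higher, against 16.9% of all loci in either direction), and the median of the 8 was 0.09.

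Csf1 was 13.4, 12.7 and 17.7 TPM in PLM, and the highest of these lay under the lowest SNI value. The means were 14.6 ± 2.72 TPM in PLM and 20.7 ± 0.493 TPM in SNI (SD, n = 3 each). Csf1 fell by 0.49 on the log2 scale (SE 0.13, limma adjusted p = 0.0492). After centring the difference was -0.24 (adjusted p = 0.339) and the groups overlapped. The call was lost when any 1 sample but PLM replicate 3 was left out, with adjusted p-values up to 0.151, and without PLM replicate 3 the adjusted p was 0.0287. Against JA, the log2 fold change of Csf1 in PLM was -0.37 (unadjusted p = 0.0350, limma adjusted p = 0.409). PLM replicate 3 lay above JA replicate 3. Of 10 microglial genes, 1 was lower in PLM against SNI at the adjusted threshold, against 13.6% of all loci. Their median was -0.04, against -0.21 for all loci. After centring, 5 were higher and 1 lower at an unadjusted p-value under 0.05, against 16.9% of all loci in either direction. The centred median was 0.21, against 0.04 for all loci, and 0 passed the adjusted threshold.

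Atf3 was 2.87, 1.77 and 3.18 TPM in PLM, below every SNI sample. The mean was 2.61 ± 0.741 TPM (SD, n = 3). The log2 fold change against SNI was -1.06 (SE 0.29, 95% interval -1.74 to -0.37, unadjusted p = 0.00880, limma adjusted p = 0.0550). After centring it was -0.81 (adjusted p = 0.245), and the groups still did not overlap, as for 9.73% of all loci in that direction. Leaving out single samples gave -1.28 to -0.78, and both thresholds were met in 4 of 6 cases, not without PLM replicate 2 or SNI replicate 2. Without the sample highest in the Schwann cell sum in each group it was -0.89 (adjusted p = 0.0957). Against JA the log2 fold change of Atf3 in PLM was -0.03, with an interval of -0.90 to 0.84.

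None of the other 6 genes passed the adjusted threshold in PLM against SNI. Flrt3 was 2.81, 2.81 and 2.85 TPM in PLM, below all SNI samples (log2 fold change -0.17, limma adjusted p = 0.284), and it overlapped SNI after centring, at 0.08. Groups free of overlap and lower in PLM were thus found for 3 of the 8 genes, Atf3, Csf1 and Flrt3, against 41.9% of all loci. Stmn4 was 521, 542 and 522 TPM in PLM, above all SNI samples, a pattern that 1.59% of all loci showed. Its log2 fold change was 0.05 as deposited (adjusted p = 0.460) and 0.30 after centring (SE 0.06, unadjusted p = 0.00260, limma adjusted p = 0.0988), where it was still free of overlap and higher in PLM, as were 14.1% of all loci. Gap43, at 113, 119 and 102 TPM in PLM, gave -0.03 as deposited and 0.22 after centring (adjusted p = 0.285). Of 10 oligodendrocyte genes, 10 were above 0 after centring, with a median of 0.20, against 0.04 for all loci. At an unadjusted p-value under 0.05, 6 were higher, against 16.9% of all loci in either direction, and 0 passed the adjusted threshold. As deposited their median was -0.05. In SNI against JA their centred median was -0.20. The part of oligodendrocyte RNA in Stmn4 and Gap43 was not tested.

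Gadd45a was 24.6, 30.7 and 27.8 TPM in PLM, which overlapped SNI (log2 fold change -0.11 as deposited, 0.14 after centring). Ecel1 was 4.28, 4.56 and 3.61 TPM (-0.26, limma adjusted p = 0.178, and -0.01 after centring). Cckbr was 3.24, 3.01 and 4.69 TPM (-0.15 as deposited, 0.09 after centring). For these 3 genes the ranges of the 2 groups overlapped on both scales.

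Among the wider regeneration list, 7 of the 27 tested genes fell in PLM against SNI, where 13.6% of all loci fell, and 0 rose. They were Cd44, Itga7, Klf7, Ncam1, Smad1, Stat3 and Tubb2b, and the median of the list was -0.35. Stat3, a mediator of cytokine signals to injured neurons and astrocytes, was 23.8, 22.8 and 24.2 TPM in SNI and 14.9, 15.5 and 18.4 TPM in PLM. It fell by 0.52 on the log2 scale (limma adjusted p = 0.0245), and its adjusted p was 0.166 after centring, where 0 genes of the list passed. Astrocyte markers moved in the same comparison. Gfap, the astrocyte intermediate filament, fell by 1.29 on the log2 scale (adjusted p = 0.00396), and 9 of 10 astrocyte genes fell, against the same 13.6% of all loci, with a median of -1.24. Their summed level was 3044 to 3370 TPM in SNI, 1488 to 1799 TPM in PLM and 1808 to 3507 TPM in JA. In the centred data 7 of the 10 still passed, against 0.814% of all loci. Of 8 motor neuron genes, 2 fell, against 13.6% of all loci, 7 were below 0 and the median was -0.485, and after centring 0 passed the adjusted threshold and the median was -0.24. Of 7 Schwann cell genes, 0 passed the adjusted threshold and 1 passed an unadjusted p-value of 0.05, all 7 were below 0, against 85.05% of all loci, and the median was -0.63. Of 8 genes of meninges and fibroblasts, 1 fell, against 13.6% of all loci, and 7 were below 0, against 85.05% of all loci. Their median was -0.56, or -0.31 after centring, where 0 passed the adjusted threshold. The part of astrocyte, motor neuron, Schwann cell, meningeal or microglial RNA in Atf3, Csf1, Stat3 and the rest was not tested.

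**Figure D4:**
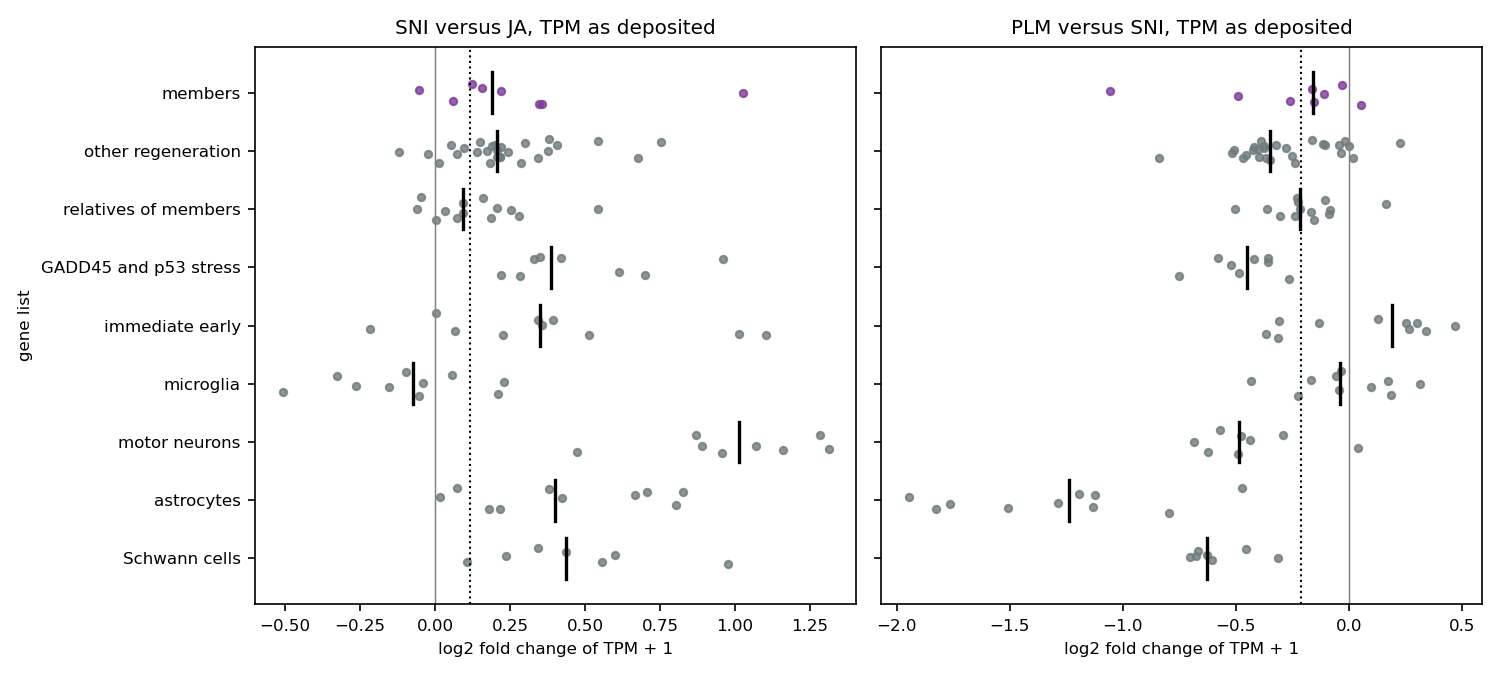
Log2 fold change of TPM + 1 as deposited (horizontal axes) of each tested gene, by list, in SNI against JA and PLM against SNI; black bars are list medians and dotted lines the median of all loci. The 10 genes' list, with 8 tested, has medians of 0.19 and -0.16, near the medians of all loci of 0.12 and -0.21, while the motor neuron list lies at 1.01 in SNI against JA and the astrocyte list at -1.24 in PLM against SNI.

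In PLM against JA, injured and drug-treated rats against sham, 0 of the 8 genes passed the adjusted threshold, against 0.0195% of 15349 loci, and 1 passed an unadjusted p-value of 0.05, Csf1 as given above, against 11.8% of all loci. None of the 8 met both thresholds, against 0.938% of all loci. All 8 overlapped between the groups on both scales, where 17.7% of all loci as deposited and 16.4% after centring did not. The median of the 8 genes was 0.01 as deposited and 0.14 after centring, against -0.10 and 0.03 for all loci. The largest positive value was that of Cckbr, at 0.19 (95% interval -0.42 to 0.81). The median in this comparison was -0.95 for astrocyte genes and -0.67 for genes of meninges and fibroblasts. It was 0.54 for motor neuron genes and 0.59 for immediate early genes. After centring these medians were -0.83, -0.54, 0.67 and 0.71, and 0 genes of these lists passed the adjusted threshold on either scale. The part of this RNA in the 8 genes was not tested. The 3 comparisons share samples, so a high or low group enters 2 of them.

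Relatives of the 10 genes were read off the same fits. Of 13 tested relatives, 0 passed the adjusted threshold in SNI against JA, as did 0% of all loci. At an unadjusted p-value under 0.05 there were 0, against 7.1% of all loci. The median was 0.09, against 0.12 for all loci. Stmn2, a stathmin of growing axons related to Stmn4, had the smallest p, with 302, 173 and 186 TPM in JA and 326, 260 and 355 TPM in SNI (log2 fold change 0.54, limma adjusted p = 0.614). In PLM against SNI, 1 of the 13 relatives fell, against 13.6% of all loci. This was Ece1, the endothelin-converting enzyme related to Ecel1, by 0.50 on the log2 scale (adjusted p = 0.0421, and 0.293 after centring).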

How the data were processed

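RNA was sequenced from the ipsilateral L3-L6 cord of 9 rats, grouped by the labels (JA, SNI and PLM, 3 samples each, labelled as biological replicates). The authors trimmed the reads (fastp 0.19.5 and CASAVA are named in the submitters' processing notes), mapped them with HISAT2 and computed expression with StringTie. The authors deposited 1 table of TPM values. The submitters' notes name a human genome build, although the identifiers are of rat, and the rat build is not given in the sources used here, so no coordinates of loci in the table are printed. The promoter stretch and its position are from RefSeq (GRCr8). TPM keeps no depth, so the precision of single values is unknown.

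Groups were compared in pairs with limma 3.58.1 in R 4.3.3 (variance trend, no covariate) on log2(TPM + 1) for loci whose mean in the 6 samples reached 1 TPM, with Benjamini-Hochberg adjustment over all loci tested. Groups were said not to overlap where every sample of one was above every sample of the other. Median-centring subtracted each sample's median log2(TPM + 1) over the loci tested. The fit was tested on simulated data. Sprr1a was given no fold change, and Sox11 is from the fit with no filter.

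The 10 genes and the other lists were chosen with earlier results of these data known. Beside the 10 genes, named by rule were Jun, Stat3, Gal, Npy, Klf6, Tubb3, Csf1r, Aif1, Chat, Gfap, Fos and, in each list, genes with the smallest p. Others were chosen after their values were seen: Mrgprd and Scn10a as markers, and the members of small counts. The alternatives were median-centring, TPM rescaled without the 13 mitochondrial protein genes, a pseudocount of 0.1, no filter, at least 1 TPM in every sample, all 9 samples in 1 fit, a replicate block, other thresholds and leaving out single samples. The result of 1 marker gene of the Schwann cell list is not reported here, and the list was used without it.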

Additional observations from a re-analysis of the deposited data

How the results depend on the processing

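Each of 369 values of single genes under an alternative was compared with its value in the report, and 323 kept their direction and side of the adjusted threshold. Every value that changed sign had a log2 fold change of at most 0.19 in size in the report. The causes of changes were not tested, and TPM keeps no depth, so what depth limits is unknown. A DESeq2 fit was not run because the table holds no counts.

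The count of genes at an adjusted p-value under 0.05 in PLM against SNI, 1 as reported, was 0 after median-centring, without the mitochondrial genes, with no filter, in the fit to all 9 samples, with the replicate block and without the samples highest in Schwann cell RNA, 2 with at least 1 TPM in every sample (Atf3, adjusted p = 0.0374, joined Csf1), and 0 to 1 with single samples left out. In SNI against JA, 0 as reported, it was 1 with the other thresholds. The median of the 8 genes in PLM against SNI was 0.087 after centring, -0.049 without the mitochondrial genes and -0.24 without the samples highest in Schwann cell RNA. Atf3 in SNI against JA met both other thresholds with a pseudocount of 0.1, at least 1 TPM in every sample, all 9 samples fitted, or without the samples highest in Schwann cell RNA, but not after centring, without the mitochondrial genes, with no filter or with the block.

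Sign changes after centring were Gap43 in SNI against JA (-0.063), in PLM against SNI Gadd45a (0.14), Gap43 (0.22), Flrt3 (0.082) and Cckbr (0.092), and in PLM against JA Atf3 (0.093), Flrt3 (0.12) and Stmn4 (0.12). Without the mitochondrial genes they were Gap43 in SNI against JA (-0.031), Gadd45a (0.033) and Gap43 (0.12) in PLM against SNI, and Atf3 (0.020), Flrt3 (0.039) and Stmn4 (0.056) in PLM against JA. Without the samples highest in Schwann cell RNA they were Gap43 in PLM against SNI (0.0058) and Atf3 (0.26), Flrt3 (0.018) and Stmn4 (0.021) in PLM against JA.

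With single samples left out, SNI against JA ranged from -0.031 to 0.10 for Gap43, -0.10 to 0.061 for Sox11, 0.089 to 0.51 for Cckbr, 0.033 to 0.25 for Flrt3, 0.13 to 0.28 for Gadd45a and 0.058 to 0.16 for Csf1, and the median of the 8 from 0.11 to 0.27. PLM against SNI ranged from -0.080 to 0.031 for Gap43, -0.31 to -0.017 for Cckbr, -0.19 to -0.031 for Gadd45a and -0.20 to -0.10 for Flrt3. In the same comparison Stmn4 ranged from 0.025 to 0.069, Sox11 from 0.10 to 0.22 and the median of the 8 from -0.21 to -0.12. Stmn4 in SNI against JA ranged from -0.072 to -0.026. PLM against JA ranged from -0.25 to 0.38 for Atf3, -0.061 to 0.090 for Gap43, 0.016 to 0.19 for Gadd45a, -0.13 to 0.083 for Flrt3, -0.019 to 0.012 for Stmn4, -0.00076 to 0.25 for Ecel1 and -0.066 to 0.36 for Cckbr, and the median of the 8 from -0.06 to 0.08.

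The labels number the replicates alike in each group. Deviations of same-numbered samples correlated between -0.05 and 0.13, so the numbers were not taken as pairs. With the replicate block, loci at the adjusted threshold in PLM against SNI were 1 higher and 151 lower, against 38 and 2110.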

Other observations

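Genes of the GADD45 family and of the p53 stress response beside Gadd45a were also measured. Of 8 tested genes, 0 passed an adjusted p-value under 0.05 in SNI against JA by limma, and 5 passed an unadjusted p-value of 0.05, against 7.1% of all loci. The median log2 fold change was 0.39, against 0.12 for all loci, and 0 of the 8 were below 0, against 23.6% of all loci. The summed level of the 9 matched genes was 229, 188 and 195 TPM in JA and 244, 286 and 393 TPM in SNI, with SNI replicate 3 apart from the other samples. Gadd45b, a stress-inducible relative of Gadd45a, had the smallest p, with 9.62, 11.1 and 10.8 TPM in JA and 13.5, 17.2 and 23.5 TPM in SNI (log2 fold change 0.70, adjusted p = 0.614). Gadd45g was 20.1, 12.6 and 15.4 TPM in JA and 19.9, 28.4 and 55.2 TPM in SNI, with SNI replicate 3 the highest and JA replicate 1 above SNI replicate 1. After centring, 2 of the 8 passed an unadjusted p-value of 0.05, against 4.83% of all loci, and the median was 0.26.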
